A study of Homo sapiens with 4 samples.

Results

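The comparison described here set HepG2 cells in which CDK4 and CDK6 were knocked down together by small interfering RNA (siRNA) beside HepG2 cells given a scrambled siRNA. HepG2 is an established liver cancer line. The CDK4/6 KD library came from cells transfected with siCDK4 and siCDK6, and the SC library from cells given the scrambled siRNA. A further library, CTL, came from DMSO-treated cells and served as a check on each finding, and another library, PD, came from cells treated with the CDK4/6 inhibitor PD-0332991 (palbociclib) and its reads are given beside the others. All cells were grown in RPMI with fetal bovine serum. The sources used here give no siRNA sequences, and state the time after transfection and the PD-0332991 dose for other assays but not for these libraries. All genes with at least 10 reads in the SC or the CDK4/6 KD library were included, which were 13617 of 24462 gene symbols after the counts of repeated symbols were summed.

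Each condition was 1 library, so no difference has a replicate check, no p-value was computed, and differences between cultures or transfections cannot be told apart from the effect of the siRNA. The 95% intervals below follow from the way a gene's reads divided between the libraries compared (Clopper-Pearson), and cover counting error only. Reads were counted without molecular identifiers, so the intervals do not allow for copies of the same molecule. Libraries were made by QuantSeq, which sequences the 3′ ends of transcripts. Totals ran from 8983848 to 11176880 reads, with 11176880 in SC and 11000545 in CDK4/6 KD. The libraries carried liver markers as the label says, with all 10 hepatocyte markers detected and summing to 15796 CPM (reads scaled to library size after TMM correction) in SC, 20586 in CDK4/6 KD and 15687 in CTL. The summed level of 8 endothelial markers was 0.467, 0.353 and 0.985 CPM, with CDH5, KDR and EMCN at 0 in all 3. Against SC, the sums of cholangiocyte, immune and keratinocyte markers were lower, while those of hepatocyte and of fibroblast or stellate markers were higher. The fibroblast or stellate markers summed to 130, 150 and 139 CPM, most of it ACTA2, and the keratinocyte sum is given further on. The 6 cholangiocyte markers summed to 1711, 1117 and 983 CPM, most of it KRT19, and the 8 immune markers to 1036, 511 and 756, most of it LYZ, with CFTR, CD3E and NKG7 at or near 0. Their part in the results was not tested. In a bulk library, fewer cells that express a gene and less of its RNA per cell cannot be told apart.

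CDK4 and CDK6 are the kinases that bind D-type cyclins and phosphorylate the retinoblastoma protein, which frees E2F factors to turn on the genes of DNA replication. The liver cell from which HepG2 derives is a secretory cell that makes most plasma proteins, clears amino acids and drugs, and turns cholesterol into bile acids. An siRNA works through a guide strand that pairs with its target transcript, and a guide can also lower other transcripts whose 3′ untranslated region (UTR) pairs with its first bases only. The genes are described by function first, and then by short words in their 3′ UTRs.

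Knockdown was seen for both targeted transcripts. CDK4 had 3789 reads in SC, 814 in CDK4/6 KD, 2754 in CTL and 2344 in PD, a fold change of 0.203 against SC (0.188 to 0.219) and 0.239 against CTL. CDK6 had 5734, 1464, 4707 and 4361 reads in the same order, a fold change of 0.241 against SC (0.228 to 0.256) and 0.251 against CTL. The knockdown library lay below the other 3 for both genes.

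A gene was called where its fold change was 2 or more, or 0.5 or less, with the whole interval past 1. Against SC, 1122 genes (8.24%) were called higher and 962 (7.06%) lower in CDK4/6 KD. Against both SC and CTL, 397 genes (2.92%) were called higher and 469 (3.44%) lower. These comparisons share the CDK4/6 KD library, so a gene called against both has not been measured afresh in knockdown cells. The controls themselves differed, with 618 genes (4.54%) called higher and 757 (5.56%) lower in SC against CTL. CTL cells received DMSO and no siRNA, so effects of transfection, of the scrambled siRNA and of separate cultures cannot be told apart in that difference. The median log2 fold change of all genes tested was 0.00 against SC and 0.01 against CTL.

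**Figure D1:**
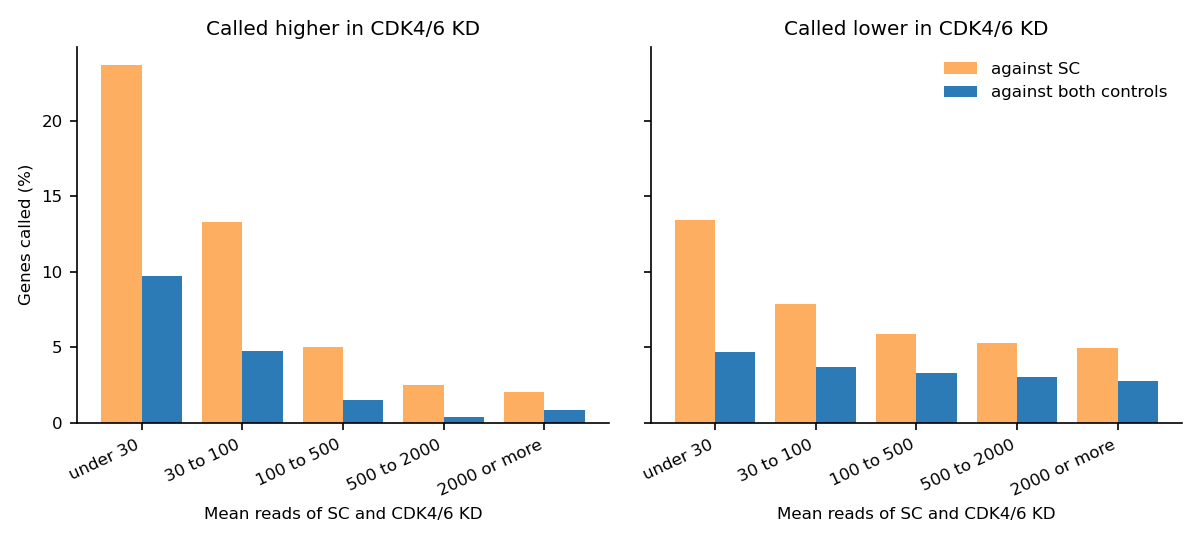
Share of genes called higher (left) and lower (right) in CDK4/6 KD, in percent, by the mean reads of the SC and CDK4/6 KD libraries. Orange bars are calls against SC and blue bars calls against both controls. Higher calls against both controls made up 9.70% of genes under 30 reads and 0.820% of genes at 2000 reads or more, while lower calls went from 4.70% to 2.73%.

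Higher calls lay mainly among genes of low abundance. Of the 1979 genes with a mean under 30 reads, 192 were called higher and 93 lower against both controls. Of the 1098 genes with 2000 reads or more, 9 were called higher and 30 lower. The median log2 fold change against SC also depended on abundance, at 0.36 under 30 reads, 0.12 from 30 to 100 and -0.09 at 2000 or more. Higher counts and medians of groups with few reads are to be read against these values.

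Genes for secreted plasma proteins were higher in the CDK4/6 KD library, led by the fibrinogen chains, factor VII, hemopexin and inter-alpha-trypsin inhibitor chains. Of 31 coagulation and fibrinolysis genes, 9 were called higher and 2 lower against SC, and 7 higher and 1 lower against both controls, with a median log2 fold change of 0.53 against SC and 0.57 against CTL. Of 27 carriers and protease inhibitors of plasma, 9 were called higher and 2 lower against SC, and 6 higher and none lower against both controls. Their median was 0.70 against SC and 0.58 against CTL. Both medians were near 0 for SC against CTL, at -0.08 and 0.04.

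The 3 fibrinogen chains, which together form the clot protein, are encoded side by side on chromosome 4. FGA had 2860 reads in SC, 10241 in CDK4/6 KD, 2617 in CTL and 4108 in PD, a fold change of 3.38 against SC (3.25 to 3.53) and 3.16 against CTL. FGG had 2596, 8601, 3449 and 4769 reads in that order, a fold change of 3.13 against SC and 2.01 against CTL. FGB had 2929, 8122, 3205 and 4535 reads, a fold change of 2.62 against SC and 2.05 against CTL. For all 3 chains the knockdown library was the highest and PD the next.

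Other clotting genes shared that order. F7, which encodes factor VII of the extrinsic pathway, had 209 reads in SC, 998 in CDK4/6 KD, 204 in CTL and 500 in PD (fold change: 4.51 against SC, 3.94 against CTL). F11, encoding factor XI, had 122, 319, 128 and 242 reads (fold change: 2.47 and 2.01), and PROZ, encoding the vitamin K-dependent protein Z, had 22, 106, 23 and 78 reads (fold change: 4.47 and 3.67). TFPI2, a protease inhibitor related to the tissue factor pathway inhibitor, had 29, 7, 30 and 35 reads (fold change: 0.242 and 0.200), and was called lower.

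Among the plasma carriers, HPX and ITIH1 had the firmest differences from both controls. HPX encodes hemopexin, which binds free heme, and had 85 reads in SC, 791 in CDK4/6 KD, 103 in CTL and 106 in PD, a fold change of 8.75 against SC (7.03 to 11.1) and 6.18 against CTL (5.04 to 7.69). ITIH1, encoding a heavy chain that is attached to hyaluronan, had 2, 149, 3 and 35 reads, a fold change of 55.8 against SC with an interval of 19.2 to 587. The sister chain ITIH3 had 171, 452, 142 and 343 reads (fold change: 2.49 and 2.56). SERPINA4, encoding kallistatin, had 137, 438, 158 and 222 reads (fold change: 3.01 and 2.23), and VTN, encoding the adhesive protein vitronectin, had 261, 694, 196 and 275 (fold change: 2.51 and 2.85). ALB, encoding albumin, had 27539, 58465, 30328 and 27771 reads, and its fold change of 2.01 against SC was 1.56 against CTL.

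Acute phase and complement genes depended more on the control. Of 17 acute phase and IL6 signalling genes, 9 were called higher against SC and 5 against both controls, and none was called lower. Their median log2 fold change was 1.14 against SC but 0.26 against CTL, and -0.54 for SC against CTL, with 6 of the 17 called lower in SC than in CTL. The 5 called against both controls were HPX, the 3 fibrinogen chains and FGL1, a fibrinogen-like protein with 1086, 3199, 1087 and 1041 reads (fold change: 2.78 and 2.38). Of 25 complement genes, 8 were called higher and 2 lower against SC, and 2 in each direction against both controls. CFB, encoding factor B of the alternative pathway, had 754, 2029, 814 and 1264 reads (fold change: 2.54 and 2.01). CD46, which shields cells from complement, had 857, 338, 641 and 676 reads (fold change: 0.373 and 0.426), and MBL2, the lectin that starts another complement pathway, had 69, 19, 39 and 35 (fold change: 0.266 against SC, and also called against CTL).

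**Figure D2:**
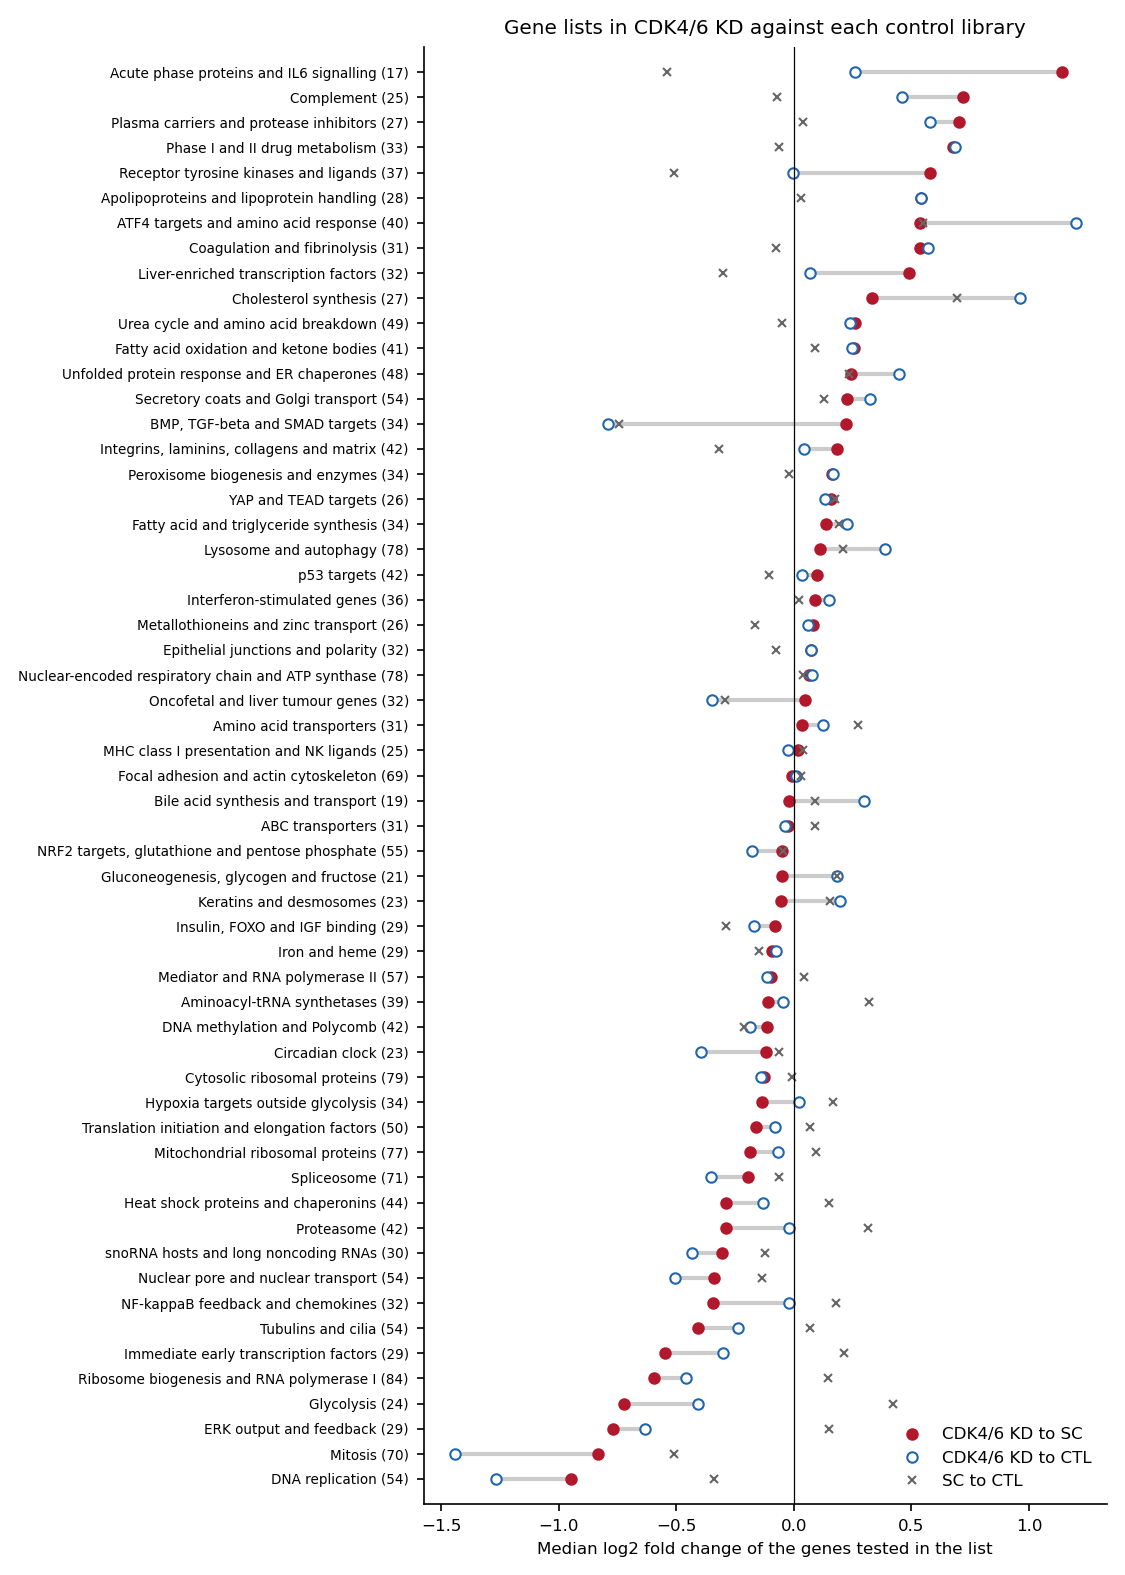
Median log2 fold change of each functional gene list, with the number of genes tested in brackets. Filled red circles are CDK4/6 KD against SC, open blue circles CDK4/6 KD against CTL and crosses SC against CTL, and the vertical line marks 0. The coagulation list lies at 0.53 and 0.57 and ribosome biogenesis at -0.59 and -0.46, while the acute phase list is at 1.14 against SC and 0.26 against CTL.

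Lipoprotein genes were in part higher against SC. Of 28 such genes, 9 were called higher and none lower against SC, and 2 higher against both controls, with a median log2 fold change of 0.54 against each control. APOC3, which slows the clearance of triglyceride-rich particles, had 2875 reads in SC, 7850 in CDK4/6 KD, 2229 in CTL and 4331 in PD (fold change: 2.58 and 2.84). APOH had 8676, 20311, 9491 and 7634 reads and was called against SC only (fold change: 2.21 and 1.73). The summed level of the list was 22942 CPM in SC and 23279 in CDK4/6 KD, since APOB, the structural protein of very low density lipoprotein and its largest member by reads, had 84010, 77141, 64318 and 69424 (fold change: 0.868 and 0.968).

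Genes of fatty acid metabolism were called near the share of all genes. Of 34 genes of fatty acid and triglyceride synthesis, 3 were called higher and 2 lower against SC (medians 0.14 and 0.23, log2), and of 41 of fatty acid oxidation and ketone bodies, 4 and 3 (medians 0.26 and 0.25). The lipid droplet gene CIDEB had 1684, 4285, 1254 and 1866 reads (fold change: 2.40 and 2.76), and CD36, a fatty acid receptor, had 80, 233, 62 and 50 (fold change: 2.74 and 3.02). On the other side, ACSL4, which activates long fatty acids, had 2211, 1110, 2406 and 1349 reads (fold change: 0.475 and 0.373), and ELOVL1, which elongates them, had 427, 164, 250 and 233 (fold change: 0.364 and 0.530).

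Enzymes of drug metabolism were higher, and those of amino acid breakdown less so. Of 33 phase I and II enzymes, 8 were called higher and none lower against SC, and 6 higher against both controls, with medians of 0.68 and 0.69 (log2). SULT2A1, which sulfates steroids and bile acids, had 664 reads in SC, 2454 in CDK4/6 KD, 887 in CTL and 842 in PD (fold change: 3.49 and 2.23). GSTA2, a glutathione transferase that shares much of its sequence with GSTA1, had 64, 170, 22 and 26 reads (fold change: 2.50 and 6.13). CYP2E1, the ethanol-oxidizing cytochrome, had 0, 21, 4 and 2 reads, at least 6.62-fold higher than SC when SC is set to a floor of 3 reads. Of 49 urea cycle and amino acid breakdown genes, 8 were called higher and 1 lower against SC, and 4 higher and 1 lower against both controls, with medians of 0.26 and 0.24 (log2) and 18 of the 49 below 1 against SC. ASS1, the urea cycle enzyme argininosuccinate synthase, had 180, 627, 243 and 439 reads (fold change: 3.29 and 2.08). SDSL, a relative of serine dehydratase, had 26, 112, 21 and 81 (fold change: 4.01 and 4.24), whereas BHMT, which remethylates homocysteine, had 33, 12, 34 and 8 (fold change: 0.354 and 0.294).

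Bile acid genes did not move as a group. Of 19 genes, 4 were called higher and 3 lower against SC, with a median log2 fold change of -0.02. CYP7A1, the rate-limiting enzyme of bile acid synthesis, had 1 read in SC, 79 in CDK4/6 KD, 3 in CTL and 9 in PD, a fold change of 49.1 against SC (13.02 to 2987) and 18.6 against CTL (7.01 to 105). SLC51B, a subunit of the bile acid exporter at the basal membrane, had 11, 0, 18 and 4 reads. Among iron genes, the hepcidin regulators TFR2, with 75, 420, 124 and 421 reads (fold change: 5.26 and 2.73), and TMPRSS6, with 7, 55, 19 and 44 (fold change: 6.97 and 2.31), were called higher, and HFE, with 31, 2, 11 and 10, was called lower (fold change: 0.0768 against SC, 0.00707 to 0.240, and 0.181 against CTL, 0.0158 to 0.672). The median of the 29 iron and heme genes was -0.09 against SC.

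Transcription factors of the liver cell gave smaller differences against CTL than against SC. Of 32 liver-enriched transcription factors, 5 were called higher and 1 lower against SC and none against both controls, with a median log2 fold change of 0.49 against SC and 0.07 against CTL. CREB3L3, a membrane-bound factor of the liver, had 294, 555, 207 and 270 reads (fold change: 1.78 and 2.16). CEBPB had 718, 1551, 813 and 1049 reads (fold change: 2.04 and 1.54), and HNF4A, the master factor of the hepatocyte, had 1597, 1844, 1356 and 1843 reads (fold change: 1.09 and 1.10).

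Targets of ATF4, the factor that is translated when amino acids run short, were higher in CDK4/6 KD, more so against CTL than against SC. Of 40 such genes, 11 were called higher and 2 lower against SC, and 10 higher and 1 lower against both controls, and the median log2 fold change was 0.54 against SC, 1.20 against CTL and 0.55 for SC against CTL. ASNS, encoding asparagine synthetase, had 1275 reads in SC, 4308 in CDK4/6 KD, 578 in CTL and 3003 in PD (fold change: 3.19 and 6.01). MTHFD2, of the mitochondrial folate cycle, had 1709, 5406, 1393 and 2330 reads (fold change: 2.99 and 3.13), and CHAC1, which degrades glutathione, had 7, 50, 0 and 9 reads (fold change: 6.35 against SC, 3.05 to 17.7, and at least 13.5-fold higher than CTL at the floor of 3 reads).

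Other members of the list differed in both directions. INHBE, encoding an activin subunit made in the liver, had 465, 2469, 187 and 714 reads, a fold change of 5.01 against SC (4.54 to 5.55) and 10.6 against CTL. VLDLR, encoding a lipoprotein receptor, had 15, 152, 13 and 23 reads (fold change: 9.29 and 9.15), and NUPR1, a stress-induced chromatin protein, had 545, 1831, 457 and 2137 (fold change: 3.17 and 3.23). NUPR1 was higher in PD than in CDK4/6 KD, whereas INHBE and VLDLR were highest in CDK4/6 KD. Against the direction of the list, SLC7A5, the light chain of a leucine transporter, had 3369, 1409, 2990 and 3224 reads (fold change: 0.395 and 0.380). GDF15, a stress hormone, had 21573, 10286, 8558 and 12374 reads, called lower against SC (fold change: 0.451) with a fold change of 0.970 against CTL.

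The endoplasmic reticulum was described by smaller shifts. None of 48 unfolded protein response and chaperone genes was called against SC in either direction, and their median log2 fold change was 0.24 against SC and 0.45 against CTL, with 30 of 48 above 1 against both. HERPUD1, which takes part in the removal of misfolded proteins, had 867, 1688, 781 and 960 reads (fold change: 1.84 and 1.74), and HSPA5, the main luminal chaperone, had 21994, 13772, 13606 and 8416 (fold change: 0.592 and 0.817). Of 27 cholesterol synthesis genes, 1 was called higher against SC and none against both controls, with medians of 0.33 against SC, 0.96 against CTL and 0.69 for SC against CTL. MSMO1, a sterol oxidase, had 2423, 4677, 1574 and 1303 reads (fold change: 1.82 and 2.40). SC thus lay above CTL for this list as well.

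**Figure D3:**
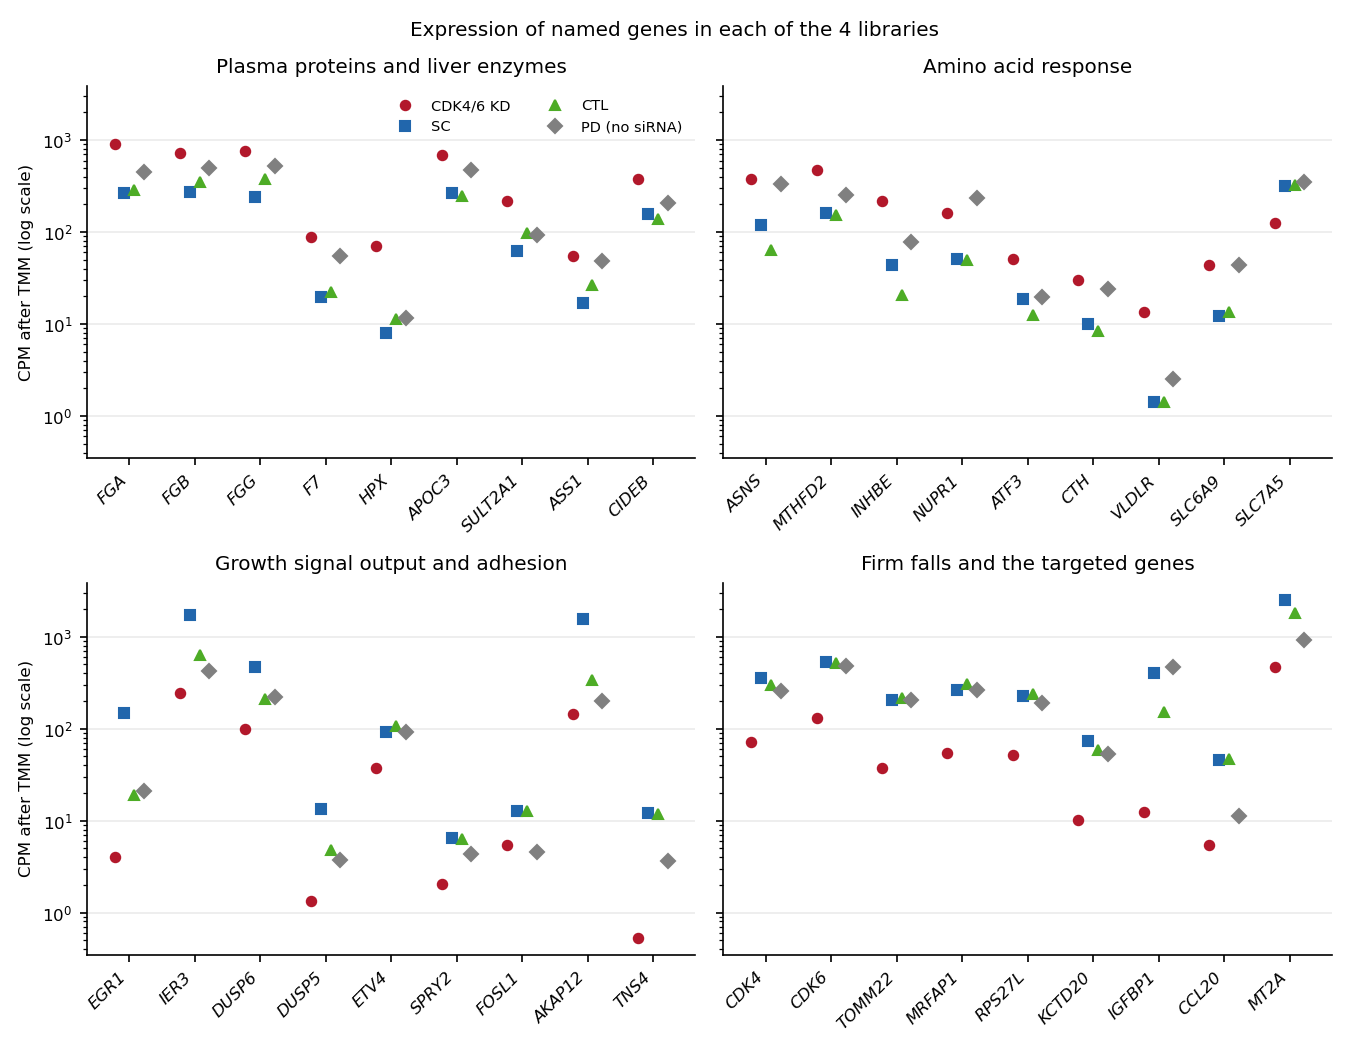
CPM after TMM normalization, on a log axis, of named genes in each library. Red circles are CDK4/6 KD, blue squares SC, green triangles CTL and grey diamonds PD, and each point is 1 library with no error bar. FGA, F7 and HPX are highest in CDK4/6 KD, whereas EGR1, TOMM22, MRFAP1 and CDK6 are lowest there.

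Promoters of called genes were searched for 15 short motifs on both strands. The search covered the 300 bases of RefSeq (GRCh38.p14) that run from 250 before to 50 after each gene's start. A promoter was found for 10540 of the 13617 genes (77.4%), which is under 80%, so the shares describe these genes only and are void as a check of all called genes. The E2F site TTTCCCGC lay in 2.50% of tested promoters and 1.64% of all 34961 promoters in the table, in 5.04% of the 357 promoters of genes called lower against both controls, and in none of the 270 called higher. The HNF1 core GTTAAT lay in 4.26% of tested promoters, 6.89% of all promoters, 7.41% of those called higher and 3.64% of those called lower. The amino acid response element TGATGNAA lay in 1.85% of tested promoters, 3.62% of all, 4.44% of those called higher and 3.08% of those called lower. The GC box GGGCGG lay in 66.6% of tested promoters, 45.03% of all, 50.4% of those called higher and 67.8% of those called lower. Among the others, CCAAT lay in 36.1% of tested promoters, 34.6% of all, 32.2% of those called higher and 45.9% of those called lower. For TTTGAA these shares were 10.6%, 15.2%, 11.5% and 17.9%, and for GGAATG 11.3%, 14.0%, 18.1% and 13.2%. The remaining motifs searched are not reported here. A match describes the letters only and no binding was measured.

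Promoters of 2 fibrinogen genes, of CHAC1 and of HPX are shown as examples of genes called higher against both controls that hold these motifs. They are FGA (chr4:154590693-154590992, minus strand), FGB (chr4:154562730-154563029, plus strand), CHAC1 (chr15:40953221-40953520, plus strand) and HPX (chr11:6440938-6441237, minus strand) on GRCh38.p14, read 5′ to 3′. Capitals mark the reverse complement of GTTAAT in FGA and FGB, the reverse complement of TGATGNAA in CHAC1 and TGATGNAA itself in HPX.
FGA: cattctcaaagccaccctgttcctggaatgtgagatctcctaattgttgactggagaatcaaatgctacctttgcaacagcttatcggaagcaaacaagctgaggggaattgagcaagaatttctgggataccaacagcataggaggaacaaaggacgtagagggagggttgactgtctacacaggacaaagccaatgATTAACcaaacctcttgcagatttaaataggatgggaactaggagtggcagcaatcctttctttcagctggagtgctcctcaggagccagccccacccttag
FGB: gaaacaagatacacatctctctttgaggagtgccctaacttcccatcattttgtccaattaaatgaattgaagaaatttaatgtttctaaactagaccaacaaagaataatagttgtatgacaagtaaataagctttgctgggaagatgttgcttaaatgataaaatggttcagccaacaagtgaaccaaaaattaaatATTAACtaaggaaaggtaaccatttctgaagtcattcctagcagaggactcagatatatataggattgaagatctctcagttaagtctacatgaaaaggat
CHAC1: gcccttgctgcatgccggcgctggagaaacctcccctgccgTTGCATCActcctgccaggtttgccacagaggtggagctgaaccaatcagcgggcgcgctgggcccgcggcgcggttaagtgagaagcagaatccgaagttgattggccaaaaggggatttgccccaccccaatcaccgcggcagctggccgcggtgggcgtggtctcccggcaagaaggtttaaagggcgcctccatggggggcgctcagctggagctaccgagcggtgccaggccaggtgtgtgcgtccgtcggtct
HPX: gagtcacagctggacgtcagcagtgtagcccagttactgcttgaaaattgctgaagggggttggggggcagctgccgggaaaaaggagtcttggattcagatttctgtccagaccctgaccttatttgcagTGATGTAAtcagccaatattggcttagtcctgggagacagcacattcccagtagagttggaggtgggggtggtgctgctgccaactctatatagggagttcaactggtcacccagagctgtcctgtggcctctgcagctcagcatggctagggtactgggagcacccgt
Counted in bases from the start of the gene, the motif began at -52 in FGA, -51 in FGB, -209 in CHAC1 and -119 in HPX.

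Transcripts that report on growth factor signalling through ERK were lower in the CDK4/6 KD library. Of 29 such genes, 13 were called lower and 1 higher against SC, and 10 lower and 1 higher against both controls, with a median log2 fold change of -0.77 against SC and -0.63 against CTL. SC stood above CTL for this list, with 10 of the 29 genes called higher in SC than in CTL and summed levels of 3840 CPM in SC, 2195 in CTL and 1370 in CDK4/6 KD. EGR1, an immediate early transcription factor, had 1576 reads in SC, 46 in CDK4/6 KD, 172 in CTL and 193 in PD (fold change: 0.0279 against SC, 0.218 against CTL). SC was also higher than CTL, 7.81-fold, so its distance from CTL is the smaller one. DUSP6, a phosphatase that switches ERK off, had 4987, 1115, 1914 and 2015 reads (fold change: 0.211 and 0.470), and ETV4, an ETS factor induced by ERK, had 993, 419, 966 and 831 (fold change: 0.399 and 0.350). SPRY2, an inhibitor of receptor signalling, had 70, 23, 58 and 39 reads (fold change: 0.316 and 0.325). The exception was DUSP8, a phosphatase of stress kinases, with 113, 419, 128 and 162 reads (fold change: 3.49 and 2.64).

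IGFBP1 and CCL20 were among the firmest falls. IGFBP1, which binds insulin-like growth factors and is made by the liver, had 4333 reads in SC, 139 in CDK4/6 KD, 1376 in CTL and 4282 in PD, a fold change of 0.0304 against SC (0.0254 to 0.0359) and 0.0818 against CTL. PD, from cells given an inhibitor of the same kinases, had 4282 reads beside 1376 in CTL, the DMSO library. For this gene PD thus lay above CTL, whereas CDK4/6 KD lay below it. CCL20, a chemokine, had 487, 61, 428 and 103 reads (fold change: 0.119 and 0.116), and BIRC3, an NF-kappaB target that blocks cell death, had 90, 11, 43 and 23 (fold change: 0.121 and 0.215). Of the 32 NF-kappaB genes, 1 was called higher and 4 lower against SC, and 1 higher and 3 lower against both controls.

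Metallothioneins, small proteins that bind zinc and copper, were lower in both CDK4/6 KD and PD. MT2A had 27196 reads in SC, 5360 in CDK4/6 KD, 16534 in CTL and 8346 in PD (fold change: 0.186 and 0.262), and MT1E had 7871, 2862, 8991 and 3304 (fold change: 0.344 and 0.257). These genes are close copies of each other and reads may be shared between them. In the whole list of 26 metallothioneins and zinc transporters, 1 was called higher and 4 lower against SC, with a median log2 fold change of 0.08. SLC39A13, a zinc transporter, had 314, 542, 220 and 447 reads (fold change: 1.63 and 1.99).

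Genes of adhesion and of the cytoskeleton differed in both directions. TNS4, encoding a tensin at focal adhesions, had 131 reads in SC, 6 in CDK4/6 KD, 108 in CTL and 33 in PD (fold change: 0.0472 and 0.0488). AKAP12, a kinase scaffold, had 16801, 1657, 3090 and 1820 reads (fold change: 0.0933 and 0.433), and SC was the outlying library for it. CNN1, a calponin of smooth muscle, went the other way with 9, 103, 20 and 3 reads (fold change: 10.3 and 4.09). The skin keratins KRT5 and KRT14 were at low counts, with KRT5 at 13, 43, 2 and 113 reads and KRT14 at 31, 74, 9 and 249. The summed level of 10 keratinocyte markers was 362 CPM in SC, 203 in CDK4/6 KD and 203 in CTL, with LOR at 0 in all 3. Most of the sum was SFN, with 3266, 1152 and 1221 reads. KRT10, like KRT5 and KRT14, had more reads in CDK4/6 KD than in SC, with 514, 986 and 606. KRT6A and KRT16 had fewer, with 37, 28 and 9 reads for KRT6A and 12, 8 and 2 for KRT16.

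The machinery that makes ribosomes was lower, while ribosomal proteins and the respiratory chain were not called. Of 84 ribosome biogenesis and RNA polymerase I genes, 15 (17.9%) were called lower and none higher against SC, beside 7.06% of all genes called lower. Against both controls, 4 (4.76%) were called lower, near the 3.44% of all genes. Of the 84, 74 lay below 1 against both. Their median log2 fold change was -0.59 against SC and -0.46 against CTL. CD3EAP, a subunit of RNA polymerase I, had 1126 reads in SC, 525 in CDK4/6 KD, 1041 in CTL and 357 in PD (fold change: 0.441 and 0.407). NAT10, which acetylates ribosomal RNA, had 1382, 670, 1133 and 771 reads (fold change: 0.459 and 0.478), and DKC1, the pseudouridine synthase dyskerin, had 3695, 1758, 2738 and 1768 (fold change: 0.450 and 0.518). None of 79 cytosolic ribosomal protein genes was called, with a median of -0.13 against SC and -0.14 against CTL. None of 78 nuclear-encoded respiratory chain genes was called either, with medians of 0.07 and 0.08.

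Small nucleolar RNA (snoRNA) host genes were lower as well. Of 15 genes of the SNHG family, 4 were called lower and none higher against SC, 3 lower against both controls, with medians of -0.50 and -0.88 (log2). SNHG12 had 697, 203, 612 and 408 reads (fold change: 0.276 and 0.268), SNHG16 had 4588, 1822, 3782 and 4447 (fold change: 0.375 and 0.389), and GAS5 had 1216, 572, 939 and 1443 (fold change: 0.445 and 0.492). Of 51 snoRNAs, 16 were called higher and 10 lower against SC. SNORA12 had 47, 374, 36 and 107 reads (fold change: 7.45 and 8.29). Of 30 small nuclear RNAs, 3 were called higher and 6 lower against SC, and none higher and 6 lower against both controls. Neither class is polyadenylated, so their reads in a library primed on poly(A) tails are not a measure of their usual form.

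Other machinery moved by smaller amounts. Of 54 nuclear pore and transport genes, 3 (5.56%) were called lower and 1 higher against SC, beside 7.06% of all genes called lower. Their median log2 fold change was -0.34, and 44 of 54 lay below 1 against both controls. NUP160, a scaffold nucleoporin, had 189, 72, 181 and 89 reads (fold change: 0.362 and 0.323). Of 54 tubulin and cilium genes, 8 were called lower and 1 higher against SC, and 5 lower against both controls. TUBA1B, an abundant alpha-tubulin, had 30901, 12008, 23122 and 5143 reads (fold change: 0.367 and 0.419), with PD the lowest. In the reference lists, 5 of 24 glycolysis genes, 22 of 54 DNA replication genes and 28 of 70 mitosis genes were called lower against both controls, with medians of -0.72, -0.95 and -0.83 against SC.

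Several groups were called near or below the share of all genes, which against SC was 8.24% higher and 7.06% lower. None of 42 proteasome genes was called, with medians of -0.29 against SC and -0.02 against CTL. Of 71 spliceosome genes, 2 were called lower against SC, and of 44 heat shock proteins and chaperonins, 1 higher and 2 lower. STIP1, a co-chaperone that links HSP70 and HSP90, was the firmest of these with 2341, 1042, 1815 and 1193 reads (fold change: 0.421 and 0.464), and it carries GTCTCAC, a word described below. Of 42 p53 targets, 4 (9.52%) were called in each direction against SC and only RPS27L, which was lower, against both controls. Of 36 interferon-stimulated genes, 3 were called higher and 1 lower, and IFIT1 had 19, 53, 19 and 20 reads (fold change: 2.59 and 2.22) while OAS3 had 397, 91, 260 and 182 (fold change: 0.218 and 0.284). Of 78 lysosome and autophagy genes, 2 were called higher and 3 lower, and ULK1, the kinase that starts autophagy, had 196, 890, 252 and 610 reads (fold change: 4.28 and 2.85). The clock repressors PER2, with 245, 74, 191 and 212 reads (fold change: 0.287 and 0.314), and NR1D2, with 50, 216, 50 and 74 (fold change: 4.05 and 3.46), differed in opposite directions.

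Some groups gave unlike medians against SC and against CTL. The BMP and TGF-beta list had a median log2 fold change of 0.22 against SC and -0.79 against CTL. Its median for SC against CTL was -0.75, so its larger difference was from CTL. ID1, an inhibitor of differentiation factors induced by BMP, had 591 reads in SC, 226 in CDK4/6 KD, 3444 in CTL and 2070 in PD, so it was low in both transfected libraries and lowest in CDK4/6 KD. The 37 receptor tyrosine kinases and ligands had medians of 0.58 against SC and 0.00 against CTL, and the 20 genes whose symbols begin with COL, mostly collagens, had medians of 1.06 against SC and -0.15 against CTL. COL27A1 had 2757, 6418, 3697 and 5042 reads (fold change: 2.20 and 1.40). For the receptor and COL groups the median of SC against CTL was below 0, at -0.51 and -1.06.

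In all, 360 genes called against SC had a fold change between 0.8 and the inverse of 0.8 against CTL, 245 of them higher and 115 lower. EMP2, a membrane protein of epithelia, was among the firmest, with 82 reads in SC, 779 in CDK4/6 KD, 777 in CTL and 564 in PD (fold change: 8.93 against SC, 0.809 against CTL). RTN4RL2 had 3, 75, 61 and 22 reads, FOXJ1 3, 63, 51 and 27, and HULC, a long noncoding RNA named for its high level in liver cancer, 2, 51, 50 and 43. SCGN, encoding a calcium-binding protein, was the reverse case with 708, 145, 130 and 185 reads (fold change: 0.194 and 0.901). In each of these genes the SC library stood apart and the other 3 lay on 1 side of it. A further 27 genes were called in opposite directions against the 2 controls.

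The firmest falls against both controls included genes of differing function. TOMM22, a receptor of the mitochondrial import pore, had 2198 reads in SC, 425 in CDK4/6 KD, 1986 in CTL and 1849 in PD (fold change: 0.183 against SC, 0.164 to 0.203, and 0.173 against CTL). MRFAP1, a chromatin-associated protein, had 2838, 611, 2780 and 2388 reads (fold change: 0.204 and 0.178), and RPS27L, a ribosomal protein relative induced by p53, had 2451, 593, 2164 and 1716 (fold change: 0.229 and 0.221). KCTD20 had 785, 115, 538 and 481 reads (fold change: 0.139 and 0.173). For these 4 genes SC, CTL and PD were near each other and only the library with CDK4 and CDK6 siRNA was low.

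This pattern led, after the values had been seen, to a search of 3′ UTRs for shared words of 7 letters. The longest annotated 3′ UTR (GENCODE 29, GRCh38) was found for 11830 of the 13617 genes (86.9%), and each of the 11363 words present in at least 500 of these genes was ranked by the median log2 fold change of genes that carry it less that of genes without it. No test was made. GTCTCAC, carried by 1373 genes, ranked lowest of 11363 words against SC and lowest against CTL. Its carriers had a median log2 fold change of -0.19 against SC, where the other genes had 0.01, and of -0.17 against CTL, where the others had 0.02. AGCTACC, carried by 837 genes, ranked next in both, with differences of -0.13 and -0.16, and GCTACCA, which shares 6 of its letters, came after it. In the comparison of SC with CTL, GTCTCAC was at place 3962, and in that of PD with CTL at place 6942.

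**Figure D4:**
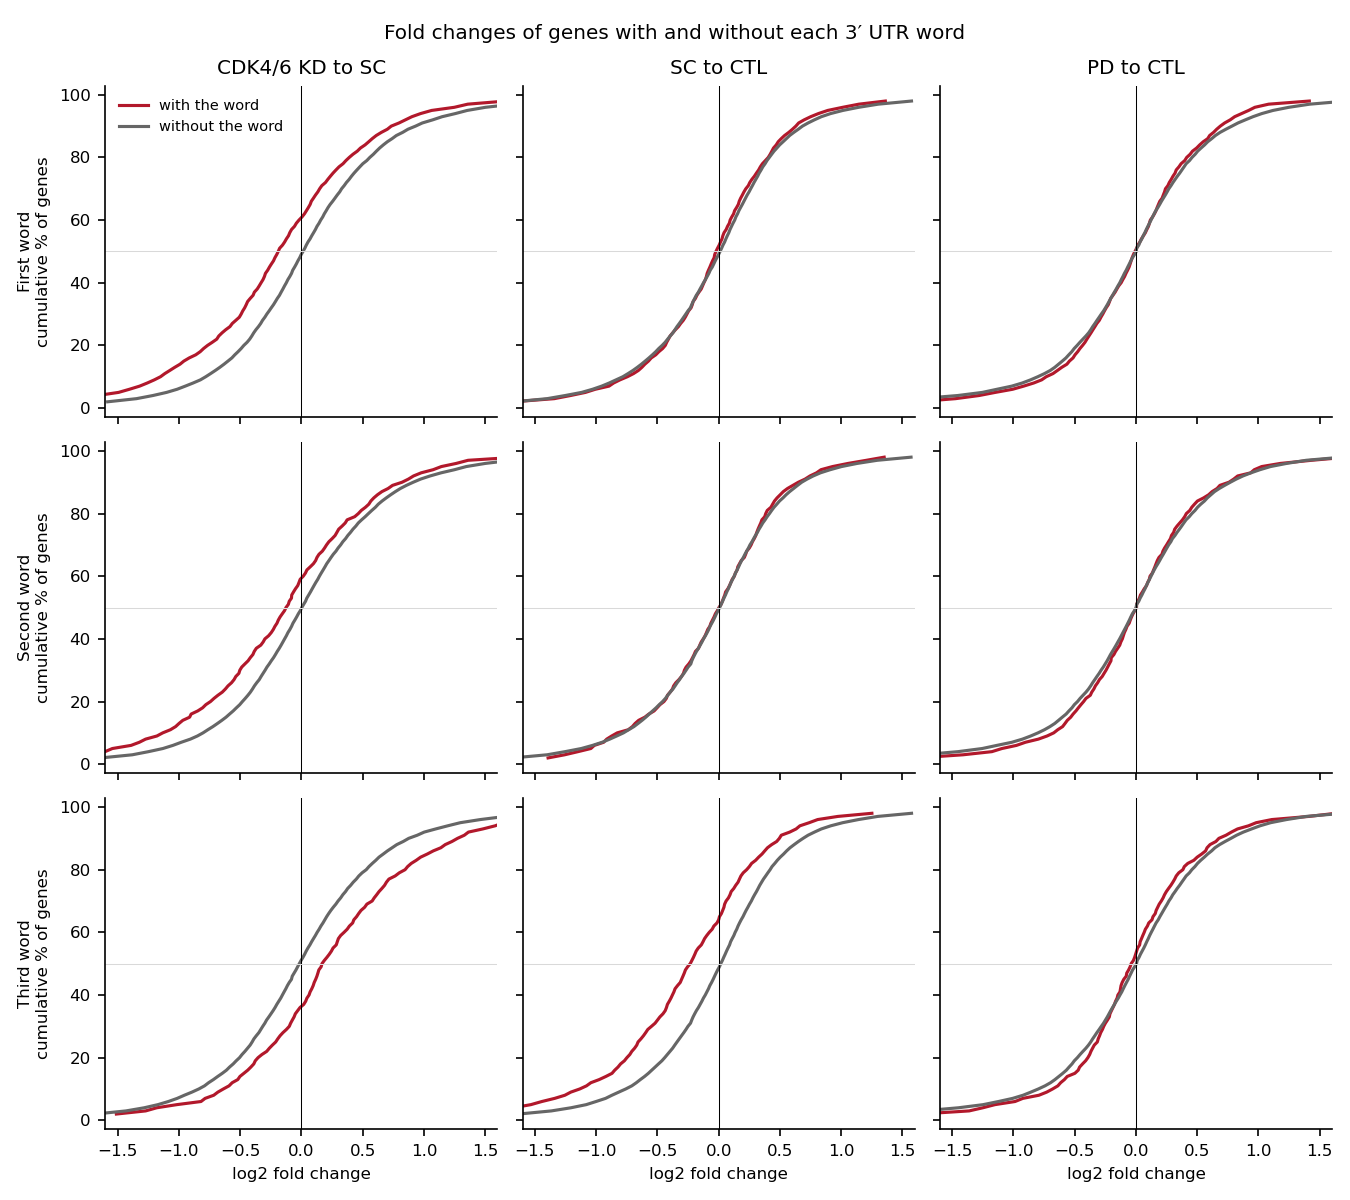
Cumulative share of genes, in percent, by log2 fold change, for genes with (red) and without (grey) a word in the 3′ UTR, in CDK4/6 KD against SC, SC against CTL and PD against CTL. The top row is GTCTCAC, the middle row AGCTACC and the bottom row GCAGTAC, a word described further on. The red line of GTCTCAC is shifted left for CDK4/6 KD against SC (median -0.19) and that of GCAGTAC for SC against CTL (median -0.23).

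The share called lower was counted among carriers. The words were ranked on these same fold changes, so the shares describe that ranking and are no separate support for it. Of the carriers of GTCTCAC, 107 (7.79%) were called lower against both controls, beside 2.83% of genes without the word. Of the carriers of AGCTACC, 57 (6.81%) were called lower, beside 3.15% of the others. Among genes called lower against both controls that had a 3′ UTR, 26.6% carried GTCTCAC and 14.1% AGCTACC. Of all genes with a 3′ UTR, 11.6% and 7.08% did, and of those called higher against both, 4.55% and 5.52%. The firmest 15 falls included 7 carriers of GTCTCAC, which were TNS4, TOMM22, KCTD20, MRFAP1, RPS27L, CDK6 and DTL. They also included 4 carriers of AGCTACC, which were IGFBP1, RRM2, KCTD20 and CDK6. TOMM22, MRFAP1, RPS27L and KCTD20 had led to the search, and CDK6 was itself targeted.

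Longer words and UTR length were examined next. Carriers of GTCTCACA, 1 letter longer, were 331 genes with a median log2 fold change of -0.31 against SC and -0.30 against CTL. Of them, 11.8% were called lower against both controls. For GTCTCACG, with 64 carriers, these values were -0.29, -0.33 and 10.9%. They were -0.16, -0.18 and 8.45% for GTCTCACC, and -0.13, -0.13 and 5.77% for GTCTCACT. Genes with 2 or more copies of GTCTCAC had -0.24 against SC and -0.16 against CTL, beside -0.18 and -0.17 with 1 copy. Carriers of GTCTCAC had longer 3′ UTRs, with a median of 3129 bases beside 1137 in the other genes. Within UTRs under 1000 bases, from 1000 to 2500, and of 2500 or more, the difference against SC was -0.37, -0.22 and -0.16.

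A further word marked the SC library. GCAGTAC, carried by 612 genes, ranked lowest of all words for SC against CTL, with a median log2 fold change of -0.23 in its carriers, and 12.3% of them were called lower in SC beside 5.09% of the others. For CDK4/6 KD against CTL, which does not use the SC library, it was at place 7281 from the lowest. EMP2 holds it 3 times in its 3′ UTR. The 212 carriers of GCAGTACA had a median of -0.34 (log2) for SC against CTL. Those of GCAGTACC, GCAGTACG and GCAGTACT had -0.17, -0.12 and -0.21. The siRNA sequences are not given in the sources used here, so whether any of these words pairs with an siRNA strand was not tested.

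Sites in genes that differed most are shown with 10 bases on each side, as the transcript reads 5′ to 3′ on GRCh38, with the word in capitals. The sites of TOMM22 (chr22:38684825-38684851, plus strand), MRFAP1 (chr4:6641825-6641851, plus), RPS27L (chr15:63153979-63154005, minus), KCTD20 (chr6:36487241-36487267, plus) and EMP2 (chr16:10532862-10532888, minus) lie in 3′ UTRs. Those of CDK6 (chr7:92615220-92615246, minus) and CDK4 (chr12:57750933-57750959, minus) lie in the coding sequence of the targeted genes. CDK6 holds GTCTCAC in its 3′ UTR as well, along with AGCTACC and GCAGTAC, and CDK4 holds AGCTACC in 6 of 10 annotated coding transcripts.
TOMM22: ctgagatcagGTCTCACtggagtacag
MRFAP1: tctatgctctGTCTCACttaacactac
RPS27L: attttgtgttGTCTCACagaaagcctt
KCTD20: ctcgtgatttGTCTCACcttgagtagg
CDK6: acagtgccctGTCTCACccatacttcc
CDK4: cagaatctacAGCTACCagatggcact
EMP2: tgcttctgctGCAGTACagaatccaca

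The groups described above were also counted without the carriers of GTCTCAC and AGCTACC. The 1787 tested genes for which no annotated 3′ UTR was found could not be searched, and any in these groups stayed among the remaining genes. Of 72 remaining ribosome biogenesis genes, 12 were called lower and none higher against SC, with the median at -0.59. Of 27 remaining ERK genes, 12 were called lower against SC and 9 against both controls, with the median at -0.77. Of 33 remaining ATF4 targets, 8 were called higher against SC and 7 against both controls, and of 26 remaining coagulation genes, 8 and 7. IER3, EGR1, DUSP6, ETV4, CD3EAP, NAT10 and TUBA1B do not carry GTCTCAC or AGCTACC in their longest annotated 3′ UTR. CD46, RHOA and MRPS27 carry GTCTCAC, and SLC7A5, AKAP12 and COPZ1 carry AGCTACC. Carriers were also found among genes that were higher, with GTCTCAC in VLDLR, NUPR1, MTHFD2 and HERPUD1. EMP2 carries GTCTCAC as well. Against SC, 5.10% of all carriers of GTCTCAC were called higher, beside 7.98% of genes without it.

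Families defined by their symbols alone, without choosing members, were counted as well. Of 28 CYP genes, 8 were called higher and 1 lower against SC and 6 higher and 1 lower against both controls, with a median log2 fold change of 0.71 against SC and 0.50 against CTL. The 424 ZNF genes, mostly zinc finger factors, had 38 called higher and 19 lower against SC, 7 and 3 against both controls. Of 247 SLC transporters, 30 were called higher and 25 lower against SC, but 13 higher and 18 lower against both controls. The 32 KIF genes, which encode kinesin motors, had 1 called higher and 6 lower against both controls. Of 141 LINC genes, which are long noncoding RNAs, 34 were called higher and 14 lower against SC, with a median of 0.34, close to the median of 0.36 and the 469 higher and 265 lower calls among the 1979 genes of any kind under 30 reads.

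Among single genes outside the groups above, the firmest rises included cell surface and membrane proteins. FUT1, the fucosyltransferase that makes the H antigen, had 0 reads in SC, 29 in CDK4/6 KD, 0 in CTL and 17 in PD, at least 9.14-fold higher than SC and 7.80-fold higher than CTL at the floor of 3 reads. ULBP1, a ligand of an activating receptor on natural killer cells, had 1, 45, 3 and 5 reads (fold change: 28.1 against SC, 7.26 to 1717). TMPRSS3, a membrane serine protease, had 30, 283, 46 and 107 reads (fold change: 8.78 and 4.93), and SLC17A2, a phosphate transporter relative, had 114, 568, 62 and 67 (fold change: 4.69 and 7.35). ALPK2, an atypical kinase, had 115, 653, 94 and 308 reads (fold change: 5.35 and 5.59), and JDP2, a repressor of AP-1 sites, had 99, 471, 75 and 231 (fold change: 4.48 and 5.04). Of these genes, FUT1, TMPRSS3, ALPK2 and JDP2 were higher in PD than in CTL as well, and SLC17A2 had near equal reads in those libraries.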

How the data were processed

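Total RNA of HepG2 cells (500 ng) was made into QuantSeq 3′ libraries, 1 per condition. The deposited values are the authors' read counts for each gene symbol and library, as whole numbers that were not normalized. The submitters' processing notes name Bowtie2, edgeR and hg19, with no version or role. The counter, the annotation and any use of strand are not given in the sources used here, so overlapping genes and close copies may share reads.

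Each table lists 25737 entries, and counts of the 286 repeated symbols were summed. Libraries were scaled with TMM factors (edgeR 4.0.16, R 4.3.3) of 0.957 to 1.03. Before each ratio, 0.5 reads were added in proportion to library size, and intervals came from scipy 1.17.1. Since a condition is 1 library, the quasi-likelihood test of edgeR has no spread to estimate, and no p-value is given. The code for the calls was run on simulated counts with counting error only, which cannot show how far cultures or transfections differ. A library at 0 reads was set to a floor of 3 reads to give a lower bound, and with 1 to 3 reads the ratio is given with its counting interval.

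The 57 gene lists, 3 of them on glycolysis and the cell cycle as reference, and the motifs were written by hand, and they and the comparison were chosen with earlier results of these data known. The genes named were CDK4 and CDK6, the 15 firmest rises and 15 firmest falls against both controls by the interval end nearest to 1, per list up to 6 members in the direction of its median, the 2 firmest in the other direction and those that define it, the 5 firmest each way that differed from SC only, and up to 3 per symbol family. Genes listed only as carriers of a word, and the 3′ UTR search itself, were chosen once the values were known. Alternatives were DESeq2 1.42.0 size factors, total counts, quantile normalization (limma 3.58.1), a pseudocount of 5 reads, no filter, a filter of 50 reads, fold thresholds, CTL as control, and the calls without carriers of the words. Some genes that the rule names are not reported here.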

Additional observations from a re-analysis of the deposited data

How the results depend on the processing

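No paired analysis was possible because each group has 1 library and the labels give no replicate numbers, and for the same reason no library could be left out. The counts of called genes depended on the thresholds. With a filter of 50 reads, 632 genes were called higher against SC and 202 against both controls, and 329 were higher and 447 lower in SC against CTL. At 1.5-fold, 2239 were higher and 2135 lower against SC, 928 and 1140 against both controls, and 1466 and 1768 in SC against CTL. With the whole interval past 2-fold, these pairs were 454 and 438, 101 and 176, and 165 and 229. The other settings kept each count within 1.5 times. Fold changes of named genes were set against their counting intervals. Medians of lists were set against an interval from the ranked fold changes of their members, which is a spread across genes. They left these intervals for 28 of 107 genes and 9 of 57 lists under total counts, and for 21 and 8 under quantile normalization. With CTL as control they left them for 61 and 13, beside those that reversed below. Scaling to total counts gave 1360 genes higher and 771 lower against SC, and quantile normalization 967 and 1013, where the reported split was 1122 and 962, and total counts moved the median of all genes by 0.10 (log2). Without carriers of GTCTCAC or AGCTACC, 371 genes were higher and 324 lower against both controls, with genes that had no annotated 3′ UTR kept in. With CTL as control, the median of receptor tyrosine kinases and ligands became -0.00409 (log2), and the fold changes became 0.809 for EMP2, 0.993 for RTN4RL2, 0.997 for FOXJ1 and 0.825 for HULC. In the word search, a minimum of 200 carriers in place of 500 put AGCTACC at place 4 against SC and 5 against CTL and left GTCTCAC first in both.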
